A study of Homo sapiens with 18 samples.

Results

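The epidermal differentiation complex is a cluster of genes on the long arm of human chromosome 1. Its members were taken as the protein-coding genes of GENCODE 29 (build GRCh38) that start within a fixed interval of 1800000 bases on chromosome 1. The first measured member, S100A10, starts at 151982915 and the last, NPR1, at 153678637. Of 68 such genes in the annotation, 36 had a row among the 35044 genes of the deposited count table and are called measured here. The other 32 (among them LORICRIN and most LCE genes) had no row and were not analysed. From one end to the other the 36 are S100A10 and S100A11, the cornified envelope genes from TCHHL1 to SPRR2F, the peptidoglycan receptors PGLYRP3 and PGLYRP4, the remaining S100A genes, and at the far edge CHTOP, SNAPIN, ILF2 and NPR1, which lie inside the interval but do not belong to the epidermal families. Levels are given in CPM, counts scaled to the TMM-normalized library size, and in TPM, which also divides by exonic length, wherever genes are compared with one another.

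The cluster is best known from skin. Keratinocytes that leave the basal layer switch on involucrin (IVL), loricrin, the small proline-rich SPRR proteins and the late cornified envelope LCE proteins, which transglutaminases join into the cornified envelope, while filaggrin (FLG) bundles keratin filaments. The S100A genes beside them encode small EF-hand proteins. Most of these are calcium sensors that bind partner proteins when calcium rises, and several are expressed in breast epithelium and breast cancer.

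RNA-seq was done on HCC1937-EV, the BRCA1-mutated HCC1937 breast cancer cell line with an empty vector, and on HCC1937-OE-BRCA1, in which wild-type BRCA1 was introduced to be overexpressed. Both were sequenced untreated (0 h) and after 12 h and 24 h of olaparib, a PARP inhibitor, which the study used at 10 µmol/L, with 3 libraries for each of the 6 conditions and 18 libraries in all. Libraries were grouped by line and time from their titles. The sample labels also list olaparib for the 0 h libraries and a WT genotype for HCC1937-EV, whereas the paper describes untreated cells and a BRCA1-mutated line. Whether the lines are single clones, and whether the 3 libraries came from separate cultures, is not given in the sources used here, so the p-values measure only the spread between these libraries.

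Total counts lay between 15081973 and 17571922 per library. BRCA1 was at 118 ± 7.70 CPM (SD, n = 3) in untreated HCC1937-EV and 138 ± 24.0 CPM (SD, n = 3) in untreated HCC1937-OE-BRCA1, a difference that was not called (adjusted p = 0.0654). At 12 h it was again not called (adjusted p = 0.197). At 24 h BRCA1 was at 94.5 ± 4.47 CPM (SD, n = 3) in HCC1937-EV, highest 99.5, and at 161 ± 7.07 CPM (SD, n = 3) in HCC1937-OE-BRCA1, lowest 155, and was called higher there (log2 fold change 0.77, adjusted p = 3.2e-06, edgeR). Calls here and below are those of edgeR's quasi-likelihood test, with p adjusted by Benjamini and Hochberg over all genes tested. The libraries labelled HCC1937-EV went against an epithelial label in part. Over their 3 conditions the mean level of EPCAM was at most 0.0206 CPM, that of the E-cadherin gene CDH1 at most 1.11 CPM and that of the basal keratin KRT5 at most 0.0825 CPM, whereas KRT8 and KRT18, keratins of simple epithelia, lay at 1886 to 1953 and 875 to 965 CPM. In the libraries labelled HCC1937-OE-BRCA1 the same means were 265 to 335 CPM for EPCAM, 340.1 to 471 CPM for CDH1 and 1116 to 1644 CPM for KRT5. Of the 5 epithelial and 5 basal markers looked at, all 5 and all 5 reached 1 CPM in HCC1937-OE-BRCA1, and 2 to 3 and 2 did in HCC1937-EV. The part of BRCA1 in a difference between the lines cannot be told apart from the rest of what separates these libraries.

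The widest contrast in the cluster was between the lines. In HCC1937-EV a stretch with 21 measured members, from TCHHL1 to S100A7, was close to silent. It runs over 1377 kb, from 152084144 to 153460701, and 20 of its 21 members had no count in any of the 9 libraries. The exception was S100A9, and all 21 together had 11 counts. The 32 genes of the annotation without a row in the count table all lie inside this stretch too. No counts are given for them in either line. Whether they were at 0 in both lines cannot be told, since every gene with a row had a count in some library. All 15 members outside this stretch had counts in HCC1937-EV. In HCC1937-OE-BRCA1 each of the 36 members had counts, from 2 to 1464 for the 20 that were at 0 in HCC1937-EV. All 35044 genes had a count in some library, so those 20 had to have counts in HCC1937-OE-BRCA1. Of all 35044 genes, 13.8% had no count in HCC1937-EV, against 55.6% of the members and 2.65% of 113 flanking genes, those within 1800000 bases on either side of the interval. Silence in HCC1937-EV was not confined to the cluster. Of 56 tested genes of cornification outside it, a list described below, 45 had counts in HCC1937-EV. Of the 24 members that passed edgeR's filter on low counts, 9 had none, where the share over all genes tested was 4.72%. None lacked counts in HCC1937-OE-BRCA1, where that share was 1.16%. These 9 passed through their counts in the other line and so had to differ between the lines. RNA from a bulk culture cannot separate fewer expressing cells from less RNA per cell.

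**Figure D1:**
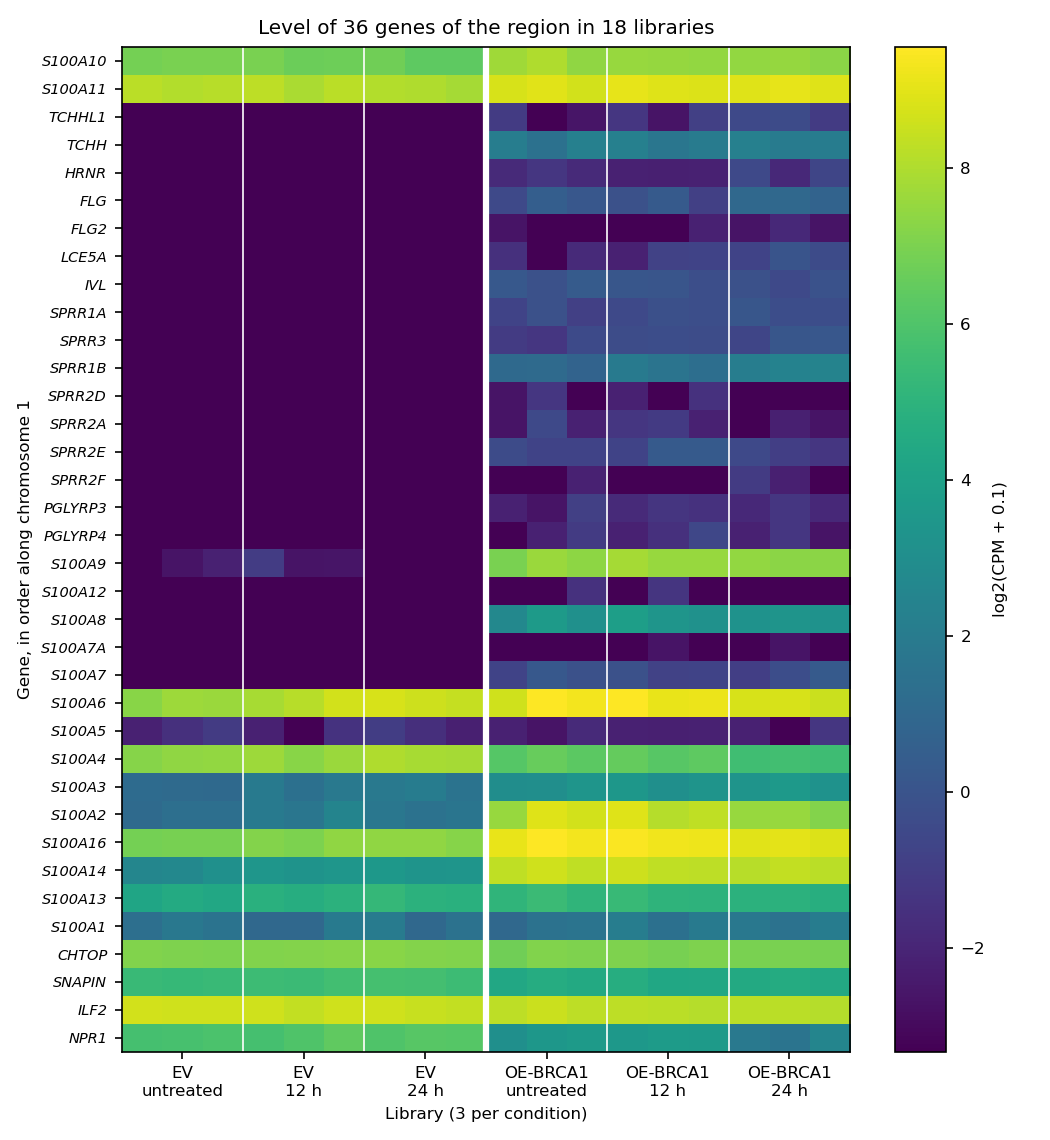
Level of each of the 36 genes (vertical axis, in order along chromosome 1) in each of the 18 libraries (horizontal axis, 3 per condition), as log2(CPM + 0.1) on the colour scale. The block from TCHHL1 to S100A7 is at the bottom of the scale in the 9 HCC1937-EV libraries apart from 11 counts of S100A9, and above it in most HCC1937-OE-BRCA1 libraries.

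Promoters of a few members are shown so that the genes that were silent in HCC1937-EV can be set beside those expressed in both lines. RefSeq (GRCh38.p14) held a promoter for 34 of the 36 members, and the 250 bases before the RefSeq start were searched on both strands for 4 motifs. These were the AP-1 site TGACTCA, the TATA box TATAAA, the GC box GGGCGG and the interferon-stimulated response element (GAAA, any 2 bases, GAAA). None contains another, and neighbouring GC boxes may overlap each other. Each sequence below is 1 promoter in the direction of transcription, ending at the base before the RefSeq start, in lower case with AP-1, TATA and GC box matches in capitals. For IVL (chr1:152908296-152908545, plus strand), SPRR1B (chr1:153030953-153031202, plus strand), S100A9 (chr1:153357604-153357853, plus strand), S100A2 (chr1:153565845-153566094, minus strand), S100A4 (chr1:153545807-153546056, minus strand), S100A6 (chr1:153535992-153536241, minus strand) and NPR1 (chr1:153678438-153678687, plus strand) they read as follows. The RefSeq start is the GENCODE start for S100A9, and lies inside the GENCODE gene by 1 base for IVL and SPRR1B, 51 bases for NPR1, 253 for S100A6, 2046 for S100A2 and 4330 for S100A4.
IVL: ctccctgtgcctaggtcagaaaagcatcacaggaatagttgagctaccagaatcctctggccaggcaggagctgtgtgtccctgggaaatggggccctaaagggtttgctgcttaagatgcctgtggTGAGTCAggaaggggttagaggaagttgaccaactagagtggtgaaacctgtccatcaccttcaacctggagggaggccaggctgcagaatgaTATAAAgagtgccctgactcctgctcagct
SPRR1B: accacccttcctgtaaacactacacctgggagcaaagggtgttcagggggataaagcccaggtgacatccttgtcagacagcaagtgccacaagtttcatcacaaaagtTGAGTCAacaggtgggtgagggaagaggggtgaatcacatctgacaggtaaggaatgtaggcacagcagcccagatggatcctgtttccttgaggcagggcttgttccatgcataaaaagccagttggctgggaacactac
S100A9: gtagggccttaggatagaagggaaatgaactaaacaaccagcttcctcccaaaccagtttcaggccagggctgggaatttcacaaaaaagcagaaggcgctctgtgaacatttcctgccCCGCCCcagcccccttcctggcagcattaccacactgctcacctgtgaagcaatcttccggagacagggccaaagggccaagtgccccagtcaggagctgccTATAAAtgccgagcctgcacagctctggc
S100A2: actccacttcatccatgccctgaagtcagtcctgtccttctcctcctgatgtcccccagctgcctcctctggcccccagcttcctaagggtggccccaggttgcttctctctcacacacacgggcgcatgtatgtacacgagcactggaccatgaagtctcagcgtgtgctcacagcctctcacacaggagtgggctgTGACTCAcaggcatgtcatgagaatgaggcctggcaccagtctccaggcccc
S100A4: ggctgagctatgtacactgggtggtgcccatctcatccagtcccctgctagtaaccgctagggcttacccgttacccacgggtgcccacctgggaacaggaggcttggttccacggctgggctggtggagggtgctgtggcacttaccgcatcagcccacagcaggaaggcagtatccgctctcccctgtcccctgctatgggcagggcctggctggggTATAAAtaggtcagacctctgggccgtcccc
S100A6: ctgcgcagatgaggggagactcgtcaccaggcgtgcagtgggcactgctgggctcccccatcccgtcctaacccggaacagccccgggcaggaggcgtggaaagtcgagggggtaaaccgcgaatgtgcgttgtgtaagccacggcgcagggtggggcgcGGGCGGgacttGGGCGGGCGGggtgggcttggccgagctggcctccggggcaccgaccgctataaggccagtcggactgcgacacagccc
NPR1: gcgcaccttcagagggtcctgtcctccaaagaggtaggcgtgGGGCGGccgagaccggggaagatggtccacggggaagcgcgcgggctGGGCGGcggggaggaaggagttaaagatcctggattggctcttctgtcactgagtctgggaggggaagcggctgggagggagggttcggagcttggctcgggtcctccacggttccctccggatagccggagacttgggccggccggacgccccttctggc
An AP-1 site stood in 8 of the 34 promoters (23.5%), against 4.2% of 35116 promoters of all genes, and a TATA box in 14 of 34 (41.2%), against 10.7% of all. The GC box was in 11 of 34 (32.4%), against 42.6%, and the interferon-stimulated response element in 1 of 34 (2.94%), against 3.02%. The motifs were not spread evenly over the members. Of 18 promoters of genes without a count in HCC1937-EV, 12 held a TATA box, 6 an AP-1 site and 2 a GC box. Of 16 promoters of genes with counts there, 2 held a TATA box, 2 an AP-1 site and 9 a GC box. The 16 include the nearly silent S100A9, which had 11 counts in HCC1937-EV and whose promoter held a TATA box and a GC box. IVL, SPRR1A, SPRR3, SPRR1B, SPRR2A and SPRR2F are the 6 silent genes with an AP-1 site, which lay 123 to 117 bases before the start in IVL and 141 to 135 in SPRR1B. S100A2 held its AP-1 site 52 to 46 bases before the start. A match is a string of letters and no evidence that a factor binds there.

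The cornified envelope and filaggrin-type genes were low even where they had counts. TCHH encodes trichohyalin, which cross-links keratin filaments in the hair follicle sheath, and its mean level in HCC1937-OE-BRCA1 was 3.92 CPM untreated, 3.99 CPM at 12 h and 4.30 CPM at 24 h. FLG stood at 0.993 CPM, 0.804 CPM and 1.8 CPM in the same order. Its antisense gene FLG-AS1 covers FLG, FLG2 and HRNR on the other strand, and since it is not stated whether the counting used strand, these counts are uncertain. IVL, the scaffold on which the envelope is built, had 1.01 CPM, 0.912 CPM and 0.757 CPM. Among the SPRR genes, which add flexible cross-bridges to the envelope, SPRR1A had 0.578 CPM, 0.726 CPM and 0.819 CPM, SPRR3 0.436 CPM, 0.705 CPM and 0.859 CPM, and SPRR2E 0.558 CPM, 0.932 CPM and 0.450 CPM. Neither time of olaparib was called for TCHH, FLG, IVL, SPRR1A, SPRR3 or SPRR2E in HCC1937-OE-BRCA1 (log2 fold changes from −0.42 to 0.97 across both times, lowest adjusted p = 0.231 in edgeR's test). In HCC1937-EV all 6 were at 0 throughout, and 3 counts over the 3 untreated libraries would have put untreated HCC1937-OE-BRCA1 at least 63.2-fold higher for TCHH, 16.4-fold for IVL and 16-fold for FLG.

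SPRR1B was the one envelope gene called with olaparib. It encodes a small proline-rich substrate of transglutaminase, the protein also called cornifin. In HCC1937-OE-BRCA1 the untreated libraries had 2.03, 2.09 and 1.64 CPM (33, 34 and 26 counts), the 12 h libraries 3.77, 3.02 and 2.42 CPM, and the 24 h libraries 4.24, 5.04 and 5.33 CPM (69, 82 and 87 counts). Every treated library was above every untreated one at both times. On the log2 scale the change was 0.67 at 12 h (SE, the standard error of the fit, 0.27, adjusted p = 0.317) and 1.34 at 24 h (SE 0.26, adjusted p = 0.00605, edgeR), and the call at 24 h was kept in 6 of 6 fits that left out a library. SPRR1B stayed at 0 in all 9 HCC1937-EV libraries, so no difference between the lines in the effect of olaparib could be estimated for it. The SPRR genes are close copies of one another, and reads shared among them make each single value uncertain.

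Members that failed the filter are given by their counts. There were 12 of them, TCHHL1, HRNR, FLG2, LCE5A, SPRR2D, SPRR2A, SPRR2F, PGLYRP3, PGLYRP4, S100A12, S100A7A and S100A5, with 2 to 59 counts over all 18 libraries. LCE5A, the only late cornified envelope gene measured, had 7 counts over the 3 untreated HCC1937-OE-BRCA1 libraries, 18 at 12 h and 34 at 24 h, and TCHHL1, a relative of trichohyalin, had 7, 13 and 27. HRNR, which encodes the filaggrin-like hornerin, had 11, 6 and 22 counts. These sums were not tested. S100A5 was the one gene of the 12 with counts in HCC1937-EV, up to 7 in a library.

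S100A8 and S100A9 encode the subunits of calprotectin, which chelates zinc and manganese and is abundant in neutrophils and in stressed keratinocytes. In HCC1937-EV, S100A9 had 0, 0.0618 and 0.123 CPM untreated, 0.384, 0.0625 and 0.0679 CPM at 12 h and 0 CPM in all 3 at 24 h. The HCC1937-OE-BRCA1 libraries had 123, 196 and 164 CPM untreated, 225, 191 and 188 CPM at 12 h and 175, 159.7 and 159.04 CPM at 24 h. The lines were far apart in every library. Within HCC1937-OE-BRCA1 the untreated libraries overlapped those of both later times. The 12 h libraries all lay above the 24 h ones, and these 2 times were not tested against each other. From 3 counts against 7780, the untreated lines differed 2601-fold, with a counting interval from 890-fold to 12614-fold. At 24 h the level was at least 2777-fold higher.

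S100A8 had no count in HCC1937-EV, and in HCC1937-OE-BRCA1 it stood at 6.28, 12.7 and 8.69 CPM untreated, 14.9, 10.4 and 9.09 CPM at 12 h and 9.22, 10.2 and 9.20 CPM at 24 h. That is at least 149-fold higher untreated, at least 177-fold at 12 h and at least 161-fold at 24 h. Per length, the 2 subunits were unequal in untreated HCC1937-OE-BRCA1, with 949.5 ± 168 TPM (SD, n = 3) for S100A9 and 31.0 ± 9.09 TPM (SD, n = 3) for S100A8. Neither was called with olaparib (log2 fold changes of 0.32 and 0.31 at 12 h, 0.03 and 0.05 at 24 h, lowest adjusted p = 0.429, edgeR). S100A7, psoriasin of inflamed epidermis, had 0.786 CPM, 0.603 CPM and 0.777 CPM in HCC1937-OE-BRCA1 at the 3 times and 0 in HCC1937-EV.

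Because calprotectin is also a myeloid product, the markers of myeloid cells stand beside it. Of 8 such markers 7 were measured, and their summed mean level was 1.12 to 1.42 CPM in HCC1937-EV and 49.0 to 86.4 CPM in HCC1937-OE-BRCA1. CD14 made up most of it, at 40.6 CPM untreated, 77.7 CPM at 12 h and 77.9 CPM at 24 h. ITGAM followed, at 4.07 to 6.03 CPM against at most 0.226 CPM in HCC1937-EV, and then CYBB, at 1.15 to 1.66 CPM against 0.408 to 0.432 CPM. The pan-leukocyte gene PTPRC was at 0 in HCC1937-EV and at 0.931 to 1.23 CPM in HCC1937-OE-BRCA1, and CSF3R, LYZ and FCER1G stayed at or below 0.348 CPM there. The part of these markers in the S100A8 and S100A9 levels was not tested.

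Beyond S100A7 the S100A genes were expressed in both lines. In untreated HCC1937-EV the order per length among the members began with S100A11 (1377 ± 38.0 TPM, SD, n = 3), followed by S100A6 (622 ± 100.2 TPM), ILF2 (575 ± 10.1 TPM) and S100A4 (531 ± 52.9 TPM), whose ranges overlapped, then S100A10 (261 ± 14.7 TPM) and S100A16 (232 ± 9.62 TPM). In untreated HCC1937-OE-BRCA1 S100A11 (2237 ± 126 TPM, SD, n = 3) and S100A6 (2036 ± 527 TPM) had overlapping ranges at the top, with S100A16 next (1276 ± 106 TPM). S100A9, S100A14 (918 ± 52.2 TPM) and S100A2 (779 ± 303 TPM) came after them, again with overlapping ranges. S100A11 held rank 52 among all genes in untreated HCC1937-EV and rank 33 in untreated HCC1937-OE-BRCA1.

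Between the lines, 18 tested members were higher and 4 lower in untreated HCC1937-OE-BRCA1, out of 24, where 72.7% of all genes tested were called (39.4% higher and 33.3% lower). At 12 h the counts were 17 higher and 4 lower (72.9% of all genes called, 38.8% higher and 34.1% lower) and at 24 h 16 higher and 5 lower (73.9%, with 39.9% higher and 34% lower), all by edgeR's test at adjusted p under 0.05. The 9 members without a count in HCC1937-EV could only come out higher. Of the other 15, 9 were higher and 4 lower untreated, 8 and 4 at 12 h and 7 and 5 at 24 h. Among all 17257 tested genes with counts in both lines, 36.9% were higher and 34.1% lower untreated, 36.2% and 35% at 12 h, and 37.4% and 34.9% at 24 h. S100A9 aside, S100A2 and S100A14 were furthest apart among the tested members with counts in both lines.

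S100A2, an S100 protein of basal epithelial cells and a known p53 target, had 2.05, 2.53 and 2.47 CPM in untreated HCC1937-EV, 3.84, 3.19 and 5.5 CPM at 12 h and 3.36, 2.77 and 3.12 CPM at 24 h. Levels in HCC1937-OE-BRCA1 were 189, 487 and 407 CPM untreated, 478, 280.4 and 323 CPM at 12 h and 191, 188 and 141 CPM at 24 h. One untreated library was as low as the 24 h libraries, so these groups overlapped. The lines differed 153-fold untreated, 86.6-fold at 12 h and 56.1-fold at 24 h, with adjusted p from 5.64e-14 to 7.66e-13 in edgeR's test.

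S100A14, which lies next to S100A16 and is expressed in epithelia, had 5.84, 6.30 and 8.57 CPM untreated, 10.8, 9.63 and 10.7 CPM at 12 h and 11.3, 10.1 and 10.5 CPM at 24 h in HCC1937-EV. The HCC1937-OE-BRCA1 libraries had 317, 388 and 324 CPM, then 382, 319 and 304 CPM, then 292, 332 and 302 CPM. All treated HCC1937-EV libraries were above all untreated ones, and the line difference was 49.6-fold untreated and 29-fold at 24 h. S100A16, a broadly expressed S100 protein, had 115, 119.9 and 121 CPM, then 141, 129 and 171 CPM, then 167, 169 and 150.01 CPM in HCC1937-EV. In HCC1937-OE-BRCA1 it had 549, 726 and 631 CPM, then 712, 626 and 603 CPM, then 507, 511 and 464 CPM. Here the 24 h libraries were the lowest of the line, and the lines differed 5.36-fold untreated and 3.05-fold at 24 h.

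S100A10 and S100A11 bind annexins, S100A10 as the partner of ANXA2. S100A10 had 116, 123 and 125 CPM, then 126, 100.1 and 106 CPM, then 107, 81.8 and 82.4 CPM in HCC1937-EV, and 206, 255 and 168 CPM, then 189, 185 and 175 CPM, then 175, 185 and 158 CPM in HCC1937-OE-BRCA1. All 3 HCC1937-EV libraries at 24 h were below the untreated ones. S100A11 had 295, 268 and 282 CPM, then 311, 238 and 295 CPM, then 269, 256 and 226 CPM in HCC1937-EV, and 431, 493 and 409 CPM, then 532, 484 and 466 CPM, then 484, 529 and 480.1 CPM in HCC1937-OE-BRCA1. Times overlapped in HCC1937-OE-BRCA1 for both genes, which were 1.58-fold to 1.99-fold higher in that line at each time.

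S100A4, known from fibroblasts and motile cancer cells, went the other way. It had 148, 167 and 176 CPM untreated, 202, 153 and 195 CPM at 12 h and 262, 232 and 223 CPM at 24 h in HCC1937-EV. The HCC1937-OE-BRCA1 libraries had 71.2, 93.8 and 78.7 CPM, then 91.4, 73.4 and 81.0 CPM, then 48.2, 49.7 and 46.2 CPM. Every HCC1937-EV library was above every HCC1937-OE-BRCA1 library, and the log2 fold change between the lines was −1.01 untreated, −1.16 at 12 h and −2.32 at 24 h (highest adjusted p = 2.19e-07, edgeR). The summed mean level of 6 fibroblast markers was 98.9 to 133 CPM in HCC1937-EV and 8.29 to 10.5 CPM in HCC1937-OE-BRCA1. COL1A1 made up most of it, at 98.6 to 133 CPM and 7.45 to 9.66 CPM. The other 5 (COL1A2, COL3A1, DCN, LUM and PDGFRA) were at or near 0, with means of at most 0.124 CPM in HCC1937-EV and 0.636 CPM in HCC1937-OE-BRCA1. COL3A1, at 0.230 to 0.636 CPM in HCC1937-OE-BRCA1 and at most 0.0998 CPM in HCC1937-EV, ran against COL1A1. The part of these markers in the S100A4 difference was not tested.

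S100A6, or calcyclin, is found in many proliferating epithelial and stromal cells. It had 151, 199.9 and 193 CPM untreated, 231, 285 and 400.4 CPM at 12 h and 432, 385 and 337 CPM at 24 h in HCC1937-EV. In HCC1937-OE-BRCA1 it had 387, 729 and 630.1 CPM, then 748, 563 and 579 CPM, then 443, 432 and 369 CPM. The line difference shrank from 3.21-fold untreated (adjusted p = 2.31e-07) to 2.06-fold at 12 h (adjusted p = 8.82e-05), and at 24 h the libraries of the lines overlapped, with a log2 fold change of 0.11 that was not called (adjusted p = 0.629, edgeR).

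S100A3, S100A13 and S100A1 lay below S100A11, S100A6 and S100A16 in both lines, with S100A13 the highest of the 3. Untreated means in HCC1937-EV were 7.32 TPM for S100A3, 31.7 TPM for S100A13 and 3.24 TPM for S100A1. In HCC1937-OE-BRCA1 they were 31.4, 57.9 and 2.94 TPM. S100A3, best known from the hair cuticle, had 2.17, 2.10 and 2.03 CPM, then 3.78, 2.56 and 3.53 CPM, then 3.6, 4.19 and 2.88 CPM in HCC1937-EV, and 7.88 to 12.3 CPM over the 9 HCC1937-OE-BRCA1 libraries. S100A13, which takes part in the release of FGF1, had 18.8, 23.5 and 21.0 CPM, then 28.9, 26.1 and 31.2 CPM, then 37.9, 31.0 and 29.1 CPM in HCC1937-EV. The HCC1937-OE-BRCA1 libraries had 34.4, 44.4 and 34.0 CPM, then 41.0, 32.8 and 31.5 CPM, then 30.8, 31.3 and 26.7 CPM. S100A13 was thus higher in HCC1937-OE-BRCA1 untreated (log2 fold change 0.83, adjusted p = 2.39e-05, edgeR), and the lines overlapped at 24 h (−0.14, adjusted p = 0.361). S100A1, known from heart muscle, had condition means of 2.51 to 3.50 CPM and was called in none of the 9 comparisons. S100A13 and S100A1 overlap by 3435 bases on opposite strands and S100A3 lies within the span of S100A4 on the same strand, so reads of each pair may be split between them.

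The edge genes are not epidermal, and NPR1 stood apart among them. NPR1 encodes the receptor for atrial natriuretic peptide, a guanylyl cyclase. It had 53.2, 56.6 and 60.3 CPM, then 54.6, 63.8 and 83.4 CPM, then 64.8, 74.8 and 72.0 CPM in HCC1937-EV, and 8.37, 11 and 12.9 CPM, then 11.6, 13.3 and 12.9 CPM, then 3.62, 2.95 and 5.70 CPM in HCC1937-OE-BRCA1. The 24 h libraries of HCC1937-OE-BRCA1 were all below its other 6. The log2 fold change between the lines was −2.40 untreated and −4.10 at 24 h (adjusted p = 2.11e-10 and 1.59e-13, edgeR).

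CHTOP, an mRNA export and chromatin factor, had 130.3 to 152 CPM in the 9 HCC1937-EV libraries and 109 to 139.9 CPM in the 9 HCC1937-OE-BRCA1 libraries. SNAPIN, which binds SNARE proteins in vesicle transport, had 39.5 to 53.5 CPM and 19.9 to 25.8 CPM. ILF2, a nuclear RNA-binding protein, had 334 to 401 CPM and 275 to 363 CPM. Levels of SNAPIN did not overlap between the lines, and those of CHTOP and ILF2 did over all times. SNAPIN and ILF2 were called lower in HCC1937-OE-BRCA1 at each time and CHTOP at 24 h only, with a log2 fold change of −0.24 whose call was lost in 4 of 6 fits that left out a library. None of the 3 was called with olaparib.

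At 12 h of olaparib no member was called in either line by edgeR's test. In HCC1937-EV edgeR called 0.0436% of all genes tested (0.0273% higher and 0.0164% lower). There 6 of 24 tested members had an unadjusted p under 0.05, as had 2963 of all 18335 genes tested. DESeq2's Wald test called 2 members, S100A6 and S100A14, and 1.51% of all genes. All 6 had positive log2 fold changes, led by S100A2 at 0.82 (adjusted p = 0.298), S100A6 at 0.75 (adjusted p = 0.151), S100A3 at 0.64 (adjusted p = 0.177) and S100A14 at 0.59 (adjusted p = 0.147). In HCC1937-OE-BRCA1 edgeR called 2.31% of all genes tested (1.7% higher and 0.605% lower). There 1 member, SPRR1B, had an unadjusted p under 0.05, and DESeq2 called 0 members and 3.65% of all genes.

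After 24 h of olaparib HCC1937-EV had 6 members called higher and 1 lower out of 24, where 13.7% of all genes tested were called (8.62% higher and 5.12% lower). The 24 include 9 without a count in that line. The genes called higher were S100A genes of the cluster's far end. S100A6 rose 2.12-fold, which is 1.08 on the log2 scale (SE 0.20, adjusted p = 0.00325), and S100A3 by 0.76 (SE 0.21, adjusted p = 0.0260). S100A13 rose by 0.63 (SE 0.14, adjusted p = 0.00938), S100A14 by 0.62 (SE 0.14, adjusted p = 0.0102), S100A4 by 0.55 (SE 0.12, adjusted p = 0.00826) and S100A16 by 0.45 (SE 0.11, adjusted p = 0.0146). For each of these 6, all 3 libraries at 24 h were above all 3 untreated ones. The genes were picked by a test on these same libraries, so the lack of overlap adds no support. Its share over all genes is not given here. S100A10 fell by 0.42 on the log2 scale (SE 0.13, adjusted p = 0.0401), again with no overlap.

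The changes in HCC1937-EV moved with GC content and exonic length. A smooth trend on both accounted for 29.9% of the variance of the log2 fold changes over 13564 expressed genes at 24 h, and it alone gave the 14 members in that set a median of 0.243. With this trend removed from each library, S100A6 was at 0.73 (adjusted p = 0.00021), S100A14 at 0.41 (adjusted p = 0.0324), S100A13 at 0.39 (adjusted p = 0.0200) and S100A4 at 0.31 (adjusted p = 0.0280), all still called. S100A3 (0.44, adjusted p = 0.163) and S100A16 (0.17, adjusted p = 0.0659) were not. S100A10 remained lower and S100A11 was called lower too (−0.38, adjusted p = 0.0118, edgeR). The split thus became 4 higher and 2 lower, where 14.4% of all genes tested were called with the trend removed. Only S100A6, when untreated replicate 1 was left out, was still called among the members at 24 h, and the share of all genes called fell from 13.7% to 2.45%. S100A6 kept its call in 6 of 6 such fits, S100A4 and S100A14 in 5, S100A13 in 4, S100A16 in 2, and S100A3 and S100A10 in 1.

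**Figure D2:**
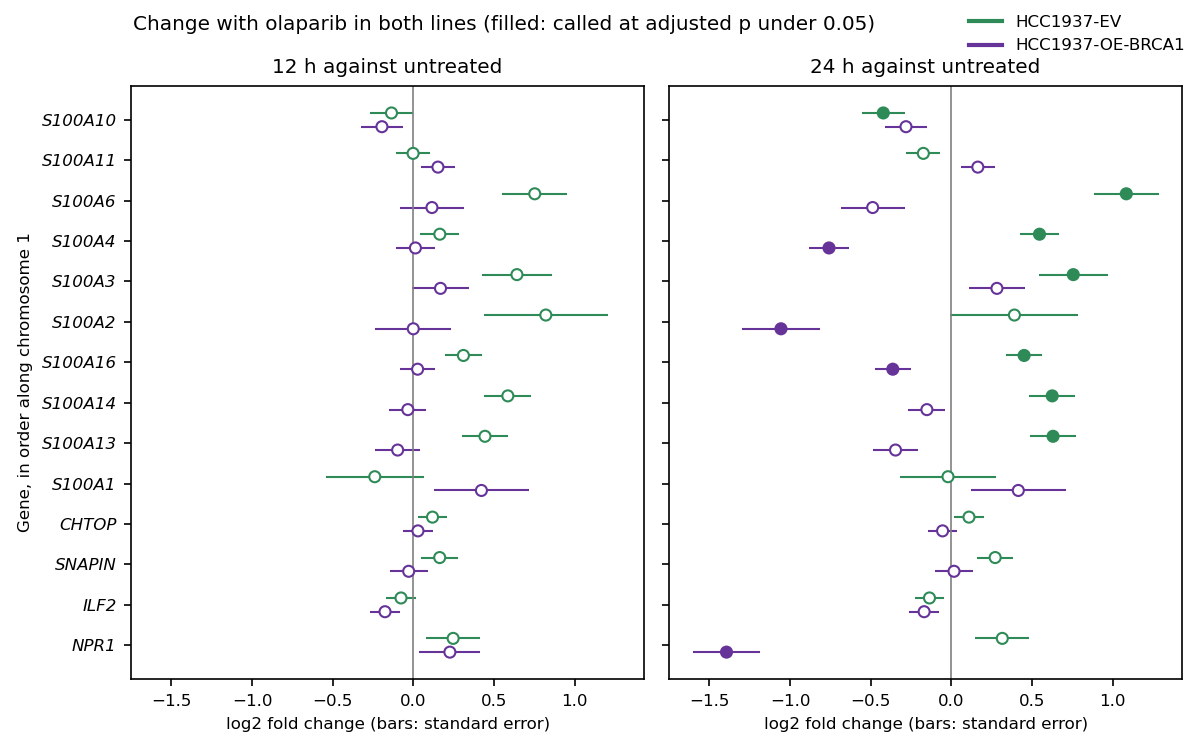
Log2 fold change with olaparib (horizontal axis, bars are standard errors, 3 libraries against 3) for 14 members expressed in both lines (vertical axis, in order along chromosome 1), at 12 h on the left and 24 h on the right. Filled points passed adjusted p under 0.05. At 24 h S100A6, S100A4, S100A16, S100A14 and S100A13 lie right of 0 in HCC1937-EV and left of 0 in HCC1937-OE-BRCA1.

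In HCC1937-OE-BRCA1 at 24 h, 1 member, SPRR1B, was called higher and 4 lower out of 24, where 8.26% of all genes tested were called (4.71% higher and 3.55% lower). NPR1 fell by 1.39 on the log2 scale (SE 0.21, adjusted p = 0.000201), S100A2 fell by 1.06 (SE 0.24, adjusted p = 0.00843), S100A4 fell by 0.76 (SE 0.12, adjusted p = 0.000481) and S100A16 fell by 0.36 (SE 0.11, adjusted p = 0.0466, edgeR). The untreated and 24 h libraries overlapped for S100A2 and for none of the other 3, which were picked by a test on these same libraries. The share of all genes without overlap is not given here. S100A6 had a log2 fold change of −0.49 (adjusted p = 0.133), S100A13 one of −0.35 (adjusted p = 0.132) and S100A14 one of −0.15 (adjusted p = 0.462). NPR1, S100A4 and SPRR1B kept their calls in 6 of 6 fits that left out a library. S100A2 lost its call without untreated replicate 2 or 24 h replicate 3, and S100A16 kept it in 1 of 6. The trend with GC content and length was weaker in this line, at 8.99% of the variance, and removing it kept these 5 calls and added S100A6 (−0.33, adjusted p = 0.0370) and ILF2 (−0.23, adjusted p = 0.0178). The share of all genes called rose to 17.2% with the trend removed.

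**Figure D3:**
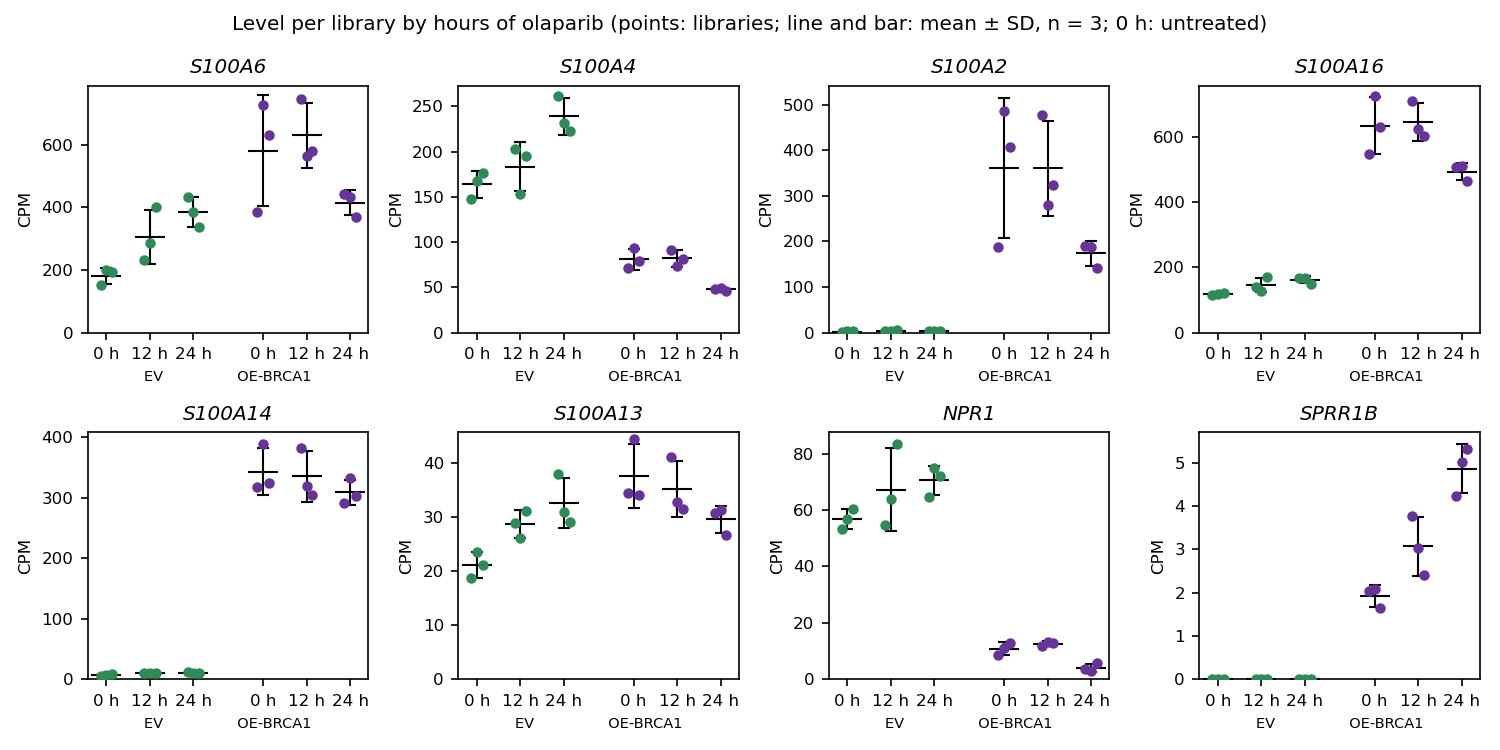
Level in CPM (vertical axes, from 0) of 8 members in each library by hours of olaparib (horizontal axis), with HCC1937-EV in green and HCC1937-OE-BRCA1 in purple. Points are libraries, and lines and bars are the mean ± SD of 3. S100A6 and S100A4 at 24 h are above untreated in HCC1937-EV, NPR1 and S100A4 are below it in HCC1937-OE-BRCA1, and SPRR1B is seen in HCC1937-OE-BRCA1 alone.

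Whether olaparib acted differently in the lines was tested as the log2 fold change in HCC1937-OE-BRCA1 minus that in HCC1937-EV. At 12 h 3 members had an unadjusted p under 0.05 for this difference, and the number over all genes is not given here. The difference was called for 0 members by edgeR, which called 0.518% of all genes tested, and for 0 by DESeq2, which called 1.95%. At 24 h it was called for 7 members, all lower in HCC1937-OE-BRCA1, where 19.4% of all genes tested were called, 11.2% lower and 8.16% higher. Of these, 6 are S100A genes, next to each other between S100A6 and S100A13, and the seventh is NPR1. The differences were −1.71 for NPR1 (adjusted p = 0.000528), −1.57 for S100A6 (adjusted p = 0.00144), −1.45 for S100A2 (adjusted p = 0.0331), −1.30 for S100A4 (adjusted p = 0.000123), −0.98 for S100A13 (adjusted p = 0.00313), −0.81 for S100A16 (adjusted p = 0.00235) and −0.78 for S100A14 (adjusted p = 0.00707), all by edgeR's test. Between them lie S100A3, which was not called, and S100A5, which failed the filter. Over the 15 members with counts in both lines the median difference was −0.47, against 0.05 over the 17257 genes tested with counts in both. Except for S100A2, each was called in 12 of 12 fits that left out a library and after removal of the GC and length trend. S100A2 was called in 4 of 12, and its difference after removal of the trend was −1.15 (adjusted p = 0.0813). With the trend removed, S100A11 had a difference of 0.58 (adjusted p = 0.00531, edgeR), which made the split 1 higher and 6 lower. The share of all genes called was then 18.6%.

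Genes that act with the cluster were read from 2 lists. Of 65 genes of cornification outside the region (transglutaminases, keratins, desmosome genes, kallikreins and their regulators), 56 were tested. Of these 56, 45 had counts in HCC1937-EV, and the rest could only come out higher in HCC1937-OE-BRCA1. Between the untreated lines 51 were called higher in HCC1937-OE-BRCA1 and 3 lower. That is 91.1% and 5.36% of the list, against 39.4% and 33.3% of all genes tested. In HCC1937-EV none of the list was called at 12 h by edgeR, and 6 had an unadjusted p under 0.05, as had 2963 of all 18335 genes tested. At 24 h 3 rose and 3 fell, 10.7% of the list against 13.7% of all genes tested. The higher ones were KRT10, the keratin of suprabasal epidermis (log2 fold change 1.09), and the junction genes PKP3 (0.41) and JUP (0.38). KRT80 fell by 0.44, the transcription factor GRHL1 fell by 0.43 and the desmosomal plaque gene DSP fell by 0.41. In HCC1937-OE-BRCA1, 7 were higher and none lower at 12 h, led by KRT6B (1.04), KRT13 (0.90) and the kallikrein KLK7 (0.77), and 7 were higher and 4 lower at 24 h. That is 12.5% of the list at 12 h, against 2.31% of all genes tested, and 19.6% at 24 h, against 8.26%. With the GC and length trend removed, the split at 24 h became 10 higher and 10 lower, where 17.2% of all genes tested were called. Among the rises at 24 h were those of the transglutaminase TGM5 (1.41) and of CASP14, which processes filaggrin (0.77, from 433 to 741 CPM). The largest falls at 24 h were those of SCEL, the sciellin gene, which fell by 1.33, KRT10, which fell by 1.06, and KRT80, which fell by 0.51. The median log2 fold change of the list in HCC1937-OE-BRCA1 was 0.29 at 12 h and 0.14 at 24 h, against 0.00 and 0.02 over all genes tested.

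Of 14 genes for other S100 proteins and for S100 receptors and targets, 10 were tested. None was called at 12 h in either line by edgeR. In HCC1937-EV 2 had an unadjusted p under 0.05, as had 2963 of all 18335 genes tested. In HCC1937-OE-BRCA1 3 had one, and the number over all genes is not given here. At 24 h in HCC1937-EV, S100P (1.32) and the calpain gene CAPN1 (0.57) were higher, and ANXA2, which fell by 0.41, and CAPN2, which fell by 0.39, were lower. At 24 h in HCC1937-OE-BRCA1, 3 were lower, where ANXA11 fell by 0.60, ANXA2 fell by 0.32 and CAPN2 fell by 0.30. Of the 10 genes tested, 20% were thus higher and 20% lower in HCC1937-EV, against 8.62% and 5.12% of all genes tested. In HCC1937-OE-BRCA1 0% were higher and 30% lower, against 4.71% and 3.55%. ANXA2, the partner of S100A10, was thus called lower at 24 h in both lines, while S100A10 was called in HCC1937-EV and had a log2 fold change of −0.28 in HCC1937-OE-BRCA1 (adjusted p = 0.197, edgeR). Of the 102 flanking genes tested, 17 (16.7%) were called higher after 24 h in HCC1937-EV and 3 (2.94%) lower, against 8.62% and 5.12% of all genes tested. In HCC1937-OE-BRCA1 these numbers were 6 (5.88%) and 3 (2.94%), against 4.71% and 3.55%.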

How the data were processed

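Total RNA was extracted by the authors (TRIzol) and made into libraries with a NEBNext kit, and they deposited raw counts of reads per gene, whole numbers without normalization. The submitters' processing notes name HISAT2, featureCounts, DESeq2 and GRCh38. Strandedness is not given in the sources used here. Identifiers were matched without version to GENCODE 29 (33888 of 35044 genes), which gave position, exonic length and GC content. Promoters came from RefSeq.

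Genes were tested by edgeR 4.0.16 (R 4.3.3) with TMM library sizes, filterByExpr by condition (18335 genes left), 1 mean per condition over 18 libraries, quasi-likelihood test, Benjamini-Hochberg adjustment over all genes tested, calls at adjusted p under 0.05. With 3 libraries against 3, an exact permutation test of 1 value cannot go below 0.1. Replicates differed by more than sampling noise (chi-square per degree of freedom 3.07 to 37.7). Common biological variation was 12.9%. Folds against a group at 0 used 3 counts over its 3 libraries, and such limits and count intervals cover counting error only. Scripts were tested on simulated data.

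Members and lists (cornification genes, S100 partners, epithelial, basal, suprabasal, myeloid and fibroblast markers, flanking genes) were chosen with earlier results of these data known. Values per library are given for members called with olaparib or in a difference between the lines, or with a condition mean of at least 10 CPM (16 genes), and others by condition mean or counts. Outside the region, up to 3 called rises and 3 falls are named per list and comparison, and 1 of these genes is not reported here. Alternatives were DESeq2 1.42.0 size factors and Wald test, other filters, an absolute log2 fold change over 0.5, the compared libraries alone, a replicate block, a GC and length offset (mgcv 1.9.3) and each library left out.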

Additional observations from a re-analysis of the deposited data

Results flagged for a closer look

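For 7 members the effect of 24 h of olaparib differed between the lines by a test of the difference itself, the interaction term in edgeR. The log2 effect in HCC1937-OE-BRCA1 minus that in HCC1937-EV was −1.71 for NPR1, −1.57 for S100A6, −1.45 for S100A2, −1.30 for S100A4, −0.98 for S100A13, −0.81 for S100A16 and −0.78 for S100A14. For S100A4 and S100A16 the effect was called in both lines with opposite signs. In HCC1937-EV the call of S100A16 was lost with the GC and length offset (adjusted p = 0.0659, edgeR) and kept in 2 of 6 fits that left out a library, and in HCC1937-OE-BRCA1 it was lost with the replicate block (adjusted p = 0.0621, edgeR) and kept in 1 of 6. For S100A6, S100A13 and S100A14 it was called in HCC1937-EV alone, and for NPR1 and S100A2 in HCC1937-OE-BRCA1 alone. Condition groups of 3 libraries were not tested for single outlying libraries.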

How the results depend on the processing

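Over the alternatives, and for members with counts in every condition compared, values that were called stayed on the same side of the threshold 810 times, lost the call 54 times and never changed sign, and values that were not called gained a call 36 times. In HCC1937-EV at 12 h, 0 members became 2 with DESeq2's Wald test, 3 with no filter, 1 with the GC and length offset and 0 to 1 with a library left out. The share of all genes called went from 0.0436% to 1.51% with the Wald test, 2.33% with no filter and 0.736% with the offset. At 24 h the 7 members became 1 to 6 with a library left out, with 1 without untreated replicate 1 and 4 each without untreated replicate 3, 24 h replicate 1 or 24 h replicate 2, while the share of all genes called fell from 13.7% to 2.45%, 5.14%, 3.91% and 3.76%. In HCC1937-OE-BRCA1 at 24 h the 5 became 8 with the replicate block and the offset together, and 3 to 7 with a library left out, 3 without untreated replicate 2 or 24 h replicate 3, where the share of all genes fell from 8.26% to 3.91% and 3.42%. That share rose to 16.9% with the block and the offset together, and to 17.7% without untreated replicate 1. Between the lines 22, 21 and 21 members were called untreated, at 12 h and at 24 h. With at least 10 counts in every library these became 12, 12 and 10, where 14 members were tested. The share of all genes called with that filter was 72.9%, 72.6% and 73.7%. The difference in the 12 h effect went from 0 members to 3 with no filter and 0 to 2 with a library left out, 2 without untreated HCC1937-OE-BRCA1 replicate 1. The share of all genes called there went from 0.518% to 1.84% with no filter and 4.1% without that replicate. Of the cornification genes, 7 and 11 called in HCC1937-OE-BRCA1 at 12 h and 24 h became 11 (10 higher, 1 lower) and 20 (10 higher, 10 lower) with the offset. The share of all genes called rose with it from 2.31% to 6.51% and from 8.26% to 17.2%. The 11 became 7 to 20 with a library left out, 20 without untreated replicate 1 and 7 without 24 h replicate 1 or 2. The share of all genes was then 17.7%, 4.31% and 4.18%. In HCC1937-EV the list's 0 and 6 became 0 to 1 and 0 to 7. The cause of these shifts was not tested.

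Reversals concerned values that were not called. With the offset, alone and then with the replicate block, CHTOP between the untreated lines went to 0.034 and 0.032, S100A13 between the lines at 24 h to 0.023 and 0.025, and SNAPIN in the difference of the 24 h effect to 0.019 and 0.019. S100A4 in HCC1937-EV at 12 h went to −0.0013 with the block and the offset together. When single libraries were left out, the 12 h change in HCC1937-OE-BRCA1 ranged from −0.12 to 0.31 for S100A6, from −0.32 to 0.28 for S100A2 and from −0.078 to 0.11 for CHTOP, and the 24 h change of S100A9 in that line from −0.13 to 0.20. CHTOP between the untreated lines ranged from −0.15 to 0.028. These extremes came without untreated HCC1937-OE-BRCA1 replicate 1 or 2. S100A9 in the difference of the 12 h effect ranged from −1.89, without untreated HCC1937-EV replicate 3, to 0.26, without 12 h HCC1937-EV replicate 1.

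Replicate numbers are shared by the groups but are not stated to mark pairs. Deviations of same-numbered libraries correlated with r from −0.227 to 0.147, in no comparison above 0.1 for all 3 numbers, and 0 to 4 of 6 libraries correlated best with their own number. With the replicate block, members called at 24 h were 7 in HCC1937-EV and 4 in HCC1937-OE-BRCA1, which lost S100A16 (adjusted p = 0.0621, edgeR), and 0 in each at 12 h. The block gave 22, 21 and 21 between the lines and 7 in the difference of the 24 h effect. Of all genes tested, it called 13.3% at 24 h and 0.00545% at 12 h in HCC1937-EV. In HCC1937-OE-BRCA1 these shares were 7.52% and 2.23%. Between the lines they were 72.7% untreated, 72.8% at 12 h and 73.9% at 24 h, and 19.1% in the difference of the 24 h effect.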
